A study of Mus musculus with 6 samples.

Results

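Transcripts of glycolysis and the citric acid cycle were followed through 42 genes, which encode glucose and lactate transporters, the glycolytic enzymes with their isozymes, lactate dehydrogenases, subunits of pyruvate dehydrogenase and the enzymes of the cycle. The genes were chosen by function and found by their mouse symbol in the GENCODE M21 annotation among the 53801 genes of the count files. All 42 were found, and all 42 passed the filter on low counts that left 17514 genes for testing. The question was whether transcripts of energy metabolism were lower in Dlx2OE beyond the genes of oxidative phosphorylation. RNA was sequenced from maxillary processes, the paired outgrowths that form the upper jaw, at E12.5 in 3 WT and 3 Dlx2OE samples. WT embryos were C57BL/6J mice without a named transgene. Dlx2OE embryos were wnt1cre; Rosa26Dlx2/-, which carry a CAG-LSL-Dlx2-3xFlag cassette knocked into Rosa26 on the same background, and the labels give the strain of every sample as C57BL/6. In these embryos Cre is driven by Wnt1, and the paper describes the overexpression of Dlx2 as specific to neural crest-derived cells. Bulk RNA does not show which cells of the tissue carry it. RNA came from littermates whose number the labels and the methods give differently, how many embryos a sample holds is not given, and no group with wnt1cre alone is analysed here.

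Glycolysis converts glucose to pyruvate in the cytosol and yields ATP without oxygen. Pyruvate is either reduced to lactate and exported, or imported into mitochondria, where pyruvate dehydrogenase and the citric acid cycle oxidize it and load the NADH that feeds the respiratory chain. Rapidly growing embryonic tissues, the cranial neural crest among them, are known for a high glycolytic flux, and hypoxia-inducible and Myc transcription factors are known inducers of many of the genes involved.

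Library depth was similar, with 26155500 to 31308813 counts on genes per sample. Dlx2 had 1056 to 1409 counts in the WT samples and 3336 to 4102 in the Dlx2OE samples, a log2 fold change of 1.60 ± 0.12 (SE, n = 3 and 3, edgeR adjusted p = 0.00241). Dlx2OE sample 3 stood apart in its share of reads outside annotated genes, 14.7% against 5.03 to 7.81% in the other 5 samples. Summed facial mesenchyme markers were 3312 to 3466 CPM (counts scaled to the library size) in WT and 3725 to 3911 CPM in Dlx2OE. The groups did not overlap, 7 of 8 markers were higher on the log2 scale, and 1 was higher at an edgeR adjusted p under 0.05. These sums were the highest of the non-erythroid marker lists in every sample. Macrophage and erythroid sums were lower in every Dlx2OE sample than in every WT sample, and neuron sums were the most variable, from 69.1 to 306 CPM in WT and 187 to 1025 CPM in Dlx2OE. In bulk tissue, fewer cells of a type and less RNA per cell cannot be told apart, for any gene below.

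As a whole the 42 genes did not move in 1 direction. At an edgeR adjusted p under 0.05, 1 member was lower in Dlx2OE, the mitochondrial isocitrate dehydrogenase Idh2, beside 3.46% of all genes tested. In the other direction 2 members were higher, the glucose transporter Slc2a3 and the glycolytic regulator Pfkfb3, beside 2.99% of all genes tested. Slc2a3 alone also passed a log2 fold change of 1, which 3.12% of all genes did in either direction, 1.62% lower and 1.5% higher. DESeq2 called 2 members lower (Idh2 and Ldhb) beside 7.21% of genes and 4 higher (Slc2a3, Pfkfb3, Slc16a1 and Pfkp) beside 5.54%. At an unadjusted edgeR p under 0.05, 7 members were lower, beside 15.4% of all genes, and 6 were higher, beside 14.1%. The samples of the groups did not overlap for 4 members that were lower (Ldhb, Pdhb, Idh2 and Idh3b), beside 17.3% of all genes, and for 6 that were higher (Slc2a3, Hk2, Pfkfb3, Slc16a1, Cs and Dlst), beside 16.7%. With so few members called, these shares lie near those of all genes or, for lower members without overlap, below it. The median log2 fold change was -0.03 over the 42 members and 0.00 over all genes tested. The medians of the pooled lists of glycolysis and of the cycle had opposite signs. The median was 0.08 for the 23 genes of glucose uptake, glycolysis and lactate, of which 13 were positive, and -0.20 for the 19 genes of pyruvate entry and the cycle, of which 13 were negative. No set test was run on these lists.

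**Figure D1:**
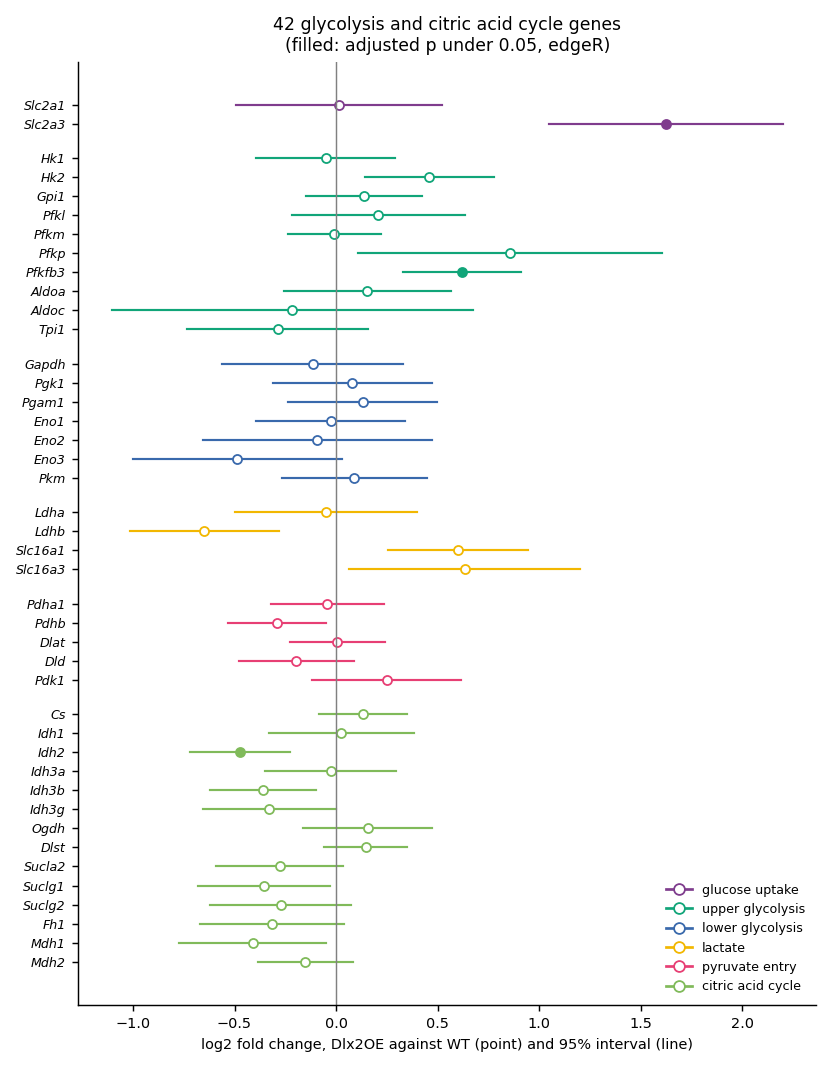
Log2 fold change of each of the 42 genes (points) with its 95% interval from edgeR (lines), Dlx2OE against WT, 3 samples each, grouped by role from glucose uptake at the top to the citric acid cycle at the bottom. Filled points have an adjusted p under 0.05. Slc2a3 at 1.62 lies to the right of all other members, and 10 of the 14 cycle genes lie left of 0.

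The promoters of 4 members are printed because these genes carry the differences described below: Pfkfb3 and Idh2 passed the test, and Slc16a1 and Hk2 were higher in every Dlx2OE sample than in every WT sample. Each is the RefSeq window of GRCm38.p6 from 250 bases before to 50 after the transcript start, on the strand of the gene, written from 5′ to 3′, and for Pfkfb3 it is the nearer to the annotated start of 2 listed windows. Capitals mark ACGTG or GCGTG on either strand, the core of the hypoxia response element, which overlaps the CACGTG box bound by Myc proteins. The windows are chr2:11553880-11554179 on the reverse strand for Pfkfb3, chr3:104638414-104638713 on the forward strand for Slc16a1, chr6:82774405-82774704 on the reverse strand for Hk2 and chr7:80115301-80115600 on the reverse strand for Idh2.
Pfkfb3: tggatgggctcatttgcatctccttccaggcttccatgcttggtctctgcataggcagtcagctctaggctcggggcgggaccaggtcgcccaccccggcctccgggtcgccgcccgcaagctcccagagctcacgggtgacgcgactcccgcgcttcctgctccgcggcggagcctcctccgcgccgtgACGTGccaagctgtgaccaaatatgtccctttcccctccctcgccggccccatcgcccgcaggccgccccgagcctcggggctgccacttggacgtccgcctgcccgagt
Slc16a1: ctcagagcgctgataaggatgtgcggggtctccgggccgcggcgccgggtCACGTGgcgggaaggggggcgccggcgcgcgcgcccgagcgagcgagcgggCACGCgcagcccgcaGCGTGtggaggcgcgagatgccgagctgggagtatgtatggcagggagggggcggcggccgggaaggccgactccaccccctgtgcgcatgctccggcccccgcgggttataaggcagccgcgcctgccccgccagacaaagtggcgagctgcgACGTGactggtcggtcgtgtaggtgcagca
Hk2: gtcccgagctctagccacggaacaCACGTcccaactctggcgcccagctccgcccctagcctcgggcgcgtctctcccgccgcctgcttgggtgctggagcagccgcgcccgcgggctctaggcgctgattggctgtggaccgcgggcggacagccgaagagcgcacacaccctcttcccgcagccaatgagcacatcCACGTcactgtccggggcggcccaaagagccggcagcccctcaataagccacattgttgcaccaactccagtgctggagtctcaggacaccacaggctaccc
Idh2: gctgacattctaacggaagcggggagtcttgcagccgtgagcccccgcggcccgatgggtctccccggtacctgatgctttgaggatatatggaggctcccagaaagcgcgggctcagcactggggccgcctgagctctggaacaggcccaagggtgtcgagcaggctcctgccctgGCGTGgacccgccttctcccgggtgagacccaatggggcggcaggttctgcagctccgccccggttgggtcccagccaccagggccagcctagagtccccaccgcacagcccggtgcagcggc
Slc16a1 held 5 matches, of which 2 are the strands of 1 CACGTG box, Hk2 held 2, and Pfkfb3 and Idh2 held 1 each. The motif was thus present in genes that were higher and in a gene that was lower. Of the other members without overlap between the groups, Ldhb and Pdhb held 1 and 2 matches, and Cs, Dlst and Idh3b held 0. A window was found for 40 of the 42 members, not for Idh3a and Slc2a3, and 30 of them (75%) held the motif in at least 1 of their listed windows. By the same count per gene the share was 64.9% of the 12215 tested genes with a window. Among all 32851 windows of this length, counted singly and so by an unlike measure, it was 43.8%. A match describes letters in a window and no binding was measured.

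Glucose enters cells through the facilitative transporters Slc2a1 (GLUT1), the usual transporter of proliferating embryonic cells, and Slc2a3 (GLUT3), a carrier of high affinity. Slc2a3 lies at chr6:122727809-122801640 on the reverse strand. Its level was 42.5, 42.7 and 45.9 CPM in WT samples 1 to 3 and 195, 115 and 93.2 CPM in Dlx2OE samples 1 to 3. Every Dlx2OE sample was above every WT sample, the WT samples differed little, and Dlx2OE sample 1 was the highest. The difference was 3.08-fold, a log2 fold change of 1.62 ± 0.25 (SE, 95% interval 1.05 to 2.20, edgeR adjusted p = 0.0163). Without Dlx2OE sample 1 the log2 fold change was 1.25, with an edgeR adjusted p of 0.0032, and without Dlx2OE sample 3 it was 1.83, with an edgeR adjusted p of 0.0119. The call was lost without WT sample 1 (edgeR adjusted p = 0.0673) or WT sample 2 (0.0887), at log2 fold changes of 1.60 in both fits. Slc2a1 showed no such shift. It was at 82.0, 113 and 88.2 CPM in WT and at 130.1, 78.7 and 77.8 CPM in Dlx2OE, overlapping groups with a log2 fold change of 0.01 (95% interval -0.49 to 0.52). The transcript pool of the transporters therefore changed in makeup: per kilobase of exon, Slc2a3 made up 20.1%, 15.4% and 20.1% of the counts of both genes in WT and 42.1%, 41.5% and 36.7% in Dlx2OE. The means were 18.5% ± 2.7 and 40.1% ± 2.9 (SD, n = 3 each). Per kilobase Slc2a1 was the more abundant of the pair in all 6 samples, while in CPM Slc2a3 exceeded it in the Dlx2OE samples.

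**Figure D2:**
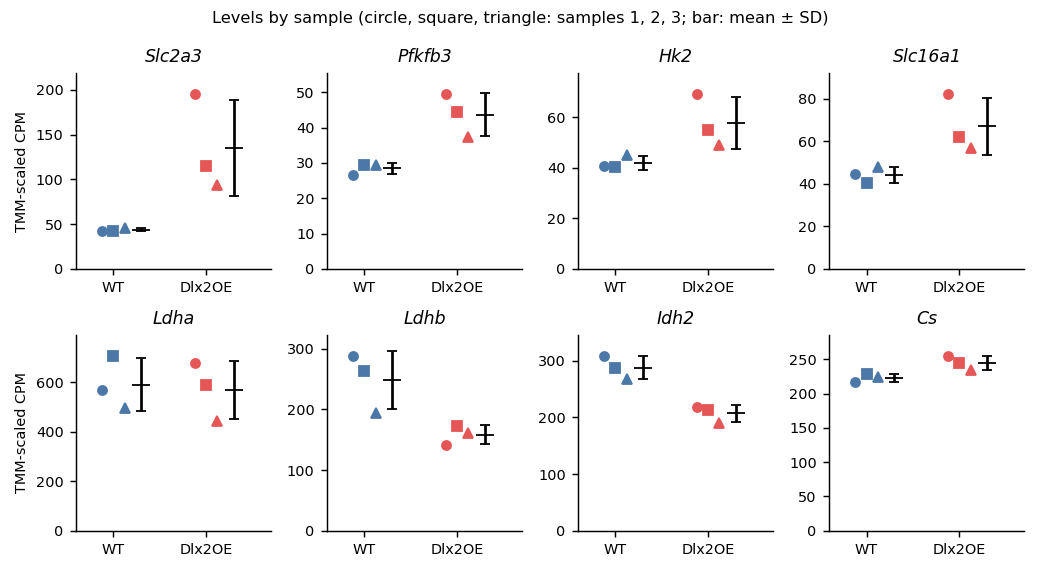
TMM-scaled CPM of 8 members in each of the 6 samples (circles, squares and triangles for samples 1, 2 and 3), with the mean and SD of each group. Slc2a3, Pfkfb3, Hk2, Slc16a1 and Cs are higher in every Dlx2OE sample, Ldhb and Idh2 are lower, and the Ldha groups overlap.

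The upper part of glycolysis commits glucose to the pathway through hexokinase (Hk1, Hk2) and phosphofructokinase (Pfkl, Pfkm, Pfkp), and then cleaves it into triose phosphates through aldolase (Aldoa, Aldoc) and Tpi1. Of its 10 genes, 1 rose and none fell at an edgeR adjusted p under 0.05, beside 2.99% and 3.46% of all genes tested. The unadjusted edgeR p was under 0.05 for 3 that were higher (Hk2, Pfkp and Pfkfb3), beside 14.1% of all genes. It was under 0.05 for none that were lower, beside 15.4%. Pfkfb3, at chr2:11471433-11554077 on the reverse strand, makes and degrades fructose 2,6-bisphosphate, the strongest allosteric activator of phosphofructokinase. It was at 26.5, 29.3 and 29.5 CPM in WT and at 49.5, 44.3 and 37.4 CPM in Dlx2OE, with no overlap. The difference was 1.54-fold, a log2 fold change of 0.62 ± 0.13 (SE, edgeR adjusted p = 0.0334). This call was close to the threshold and was lost without WT sample 1 (edgeR adjusted p = 0.113), WT sample 2 (0.131) or Dlx2OE sample 2 (0.107), and once gene length and GC were corrected for (0.0867). The direction was the same in all of these fits.

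Hk2, the hexokinase isozyme induced by insulin and hypoxia, was at 40.5, 40.1 and 45.1 CPM in WT and at 69.0, 54.8 and 48.9 CPM in Dlx2OE. The groups did not overlap. The log2 fold change was 0.46, which stayed above the threshold (edgeR adjusted p = 0.0802). Hk1, the constitutive isozyme, had a log2 fold change of -0.05. The share of Hk2 in the counts per kilobase of both hexokinases was 49.6 to 52.3% in WT and 50.8 to 66.8% in Dlx2OE, which overlapped. Pfkl, on average the leading phosphofructokinase by counts per kilobase, was at 120, 168 and 158 CPM in WT and 211, 166 and 138 CPM in Dlx2OE, and its groups overlapped. Pfkp, the platelet isozyme, was the least abundant of the 42 genes per kilobase in WT, at 0.80 CPM per kb, and was at 1.45 CPM per kb in Dlx2OE. Its level was 10.1, 10.8 and 11.2 CPM in WT and 10.4, 18.9 and 29.0 CPM in Dlx2OE. Dlx2OE sample 1 was inside the WT range and sample 3 was the highest, so that the log2 fold change of 0.86 ± 0.32 (SE) did not pass the test (edgeR adjusted p = 0.131). Aldoa was at 198, 293 and 218 CPM in WT and 303, 265 and 221 CPM in Dlx2OE, and held 97.7 to 98.8% of the aldolase counts per kilobase in every sample. The other genes of this stretch, Gpi1, Pfkm, Aldoc and Tpi1, had log2 fold changes of -0.29 to 0.14 and overlapping groups.

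The lower part of glycolysis, from Gapdh to pyruvate kinase, produces the ATP of the pathway and holds its most abundant transcripts. None of its 7 genes rose or fell at an adjusted p under 0.05 in edgeR or DESeq2, and none had an unadjusted edgeR p under 0.05. Gapdh, which encodes the dehydrogenase that makes NADH, was the most abundant of the 42 genes per kilobase. It was at 2198, 2347 and 1617 CPM in WT and at 2097, 1964 and 1630 CPM in Dlx2OE. The groups overlapped and WT sample 3 was the lowest of the 6. Its log2 fold change was -0.11, with a 95% interval of -0.56 to 0.33. Eno1, the enolase of most embryonic tissues, was at 832, 988 and 788 CPM in WT and at 942, 898 and 720 CPM in Dlx2OE, a log2 fold change of -0.03 (95% interval -0.39 to 0.34). Pkm, the pyruvate kinase of non-hepatic cells, was at 1065, 1175 and 1060 CPM in WT and at 1309, 1224 and 978 CPM in Dlx2OE. Gapdh is a common reference for normalization. For each of these 3 genes the SD within at least 1 genotype exceeded the difference between the means. Pgk1, Pgam1 and Eno2 had log2 fold changes of 0.08, 0.13 and -0.09. Eno3, the muscle enolase, had a log2 fold change of -0.49 (edgeR adjusted p = 0.187). The summed skeletal muscle markers were 206 to 424 CPM in WT and 86.7 to 254 CPM in Dlx2OE, lower on the log2 scale for 9 of 9 markers with none past the test in edgeR (3 at an unadjusted p under 0.05, 1 in DESeq2) and none at 0, and their part in the value of Eno3 was not tested.

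**Figure D3:**
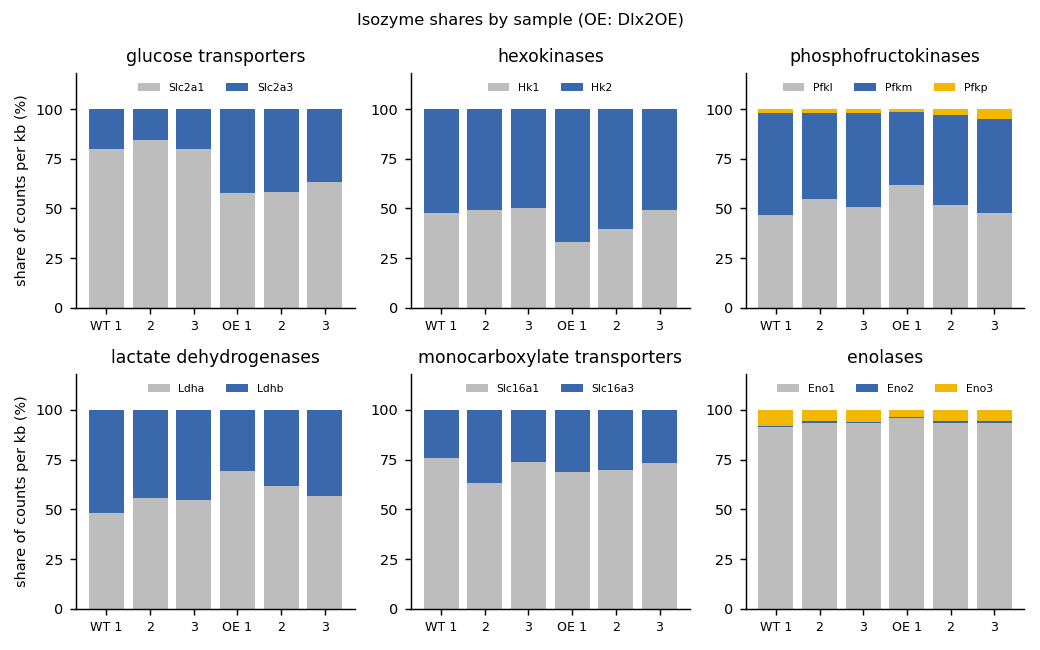
Share of each isozyme in the summed counts per kilobase of its family, in percent, for each WT and Dlx2OE (OE) sample. The Slc2a3 share is 15.4 to 20.1% in WT and 36.7 to 42.1% in Dlx2OE, the Ldhb share is lower in every Dlx2OE sample than in every WT sample, and the leading genes of the 4 other families plotted overlap between genotypes.

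Lactate dehydrogenase is a tetramer of the subunits encoded by Ldha, which favours lactate production, and Ldhb, which favours lactate oxidation. Ldha was at 570, 705 and 496 CPM in WT and at 676, 590 and 444 CPM in Dlx2OE, with overlapping groups and a log2 fold change of -0.05. Ldhb was at 288, 264 and 195 CPM in WT and at 142, 173 and 161 CPM in Dlx2OE. All Dlx2OE samples were below all WT samples, and WT sample 3 was the nearest to them. Its log2 fold change of -0.65 ± 0.16 (SE) was the most negative of the 42 and just missed the threshold (edgeR adjusted p = 0.0515), while DESeq2 gave an adjusted p of 0.00216 and the correction for length and GC content an edgeR adjusted p of 0.114. The share of Ldhb in the counts per kilobase of both subunits was 51.6%, 44.1% and 45.3% in WT and 30.7%, 38.2% and 43.4% in Dlx2OE, lower in every Dlx2OE sample.

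Lactate and pyruvate cross the membrane through the monocarboxylate transporters Slc16a1 (MCT1) and Slc16a3 (MCT4, a transporter of lactate-exporting cells). Slc16a1 was at 44.5, 40.4 and 47.8 CPM in WT and at 82.2, 62.0 and 57.0 CPM in Dlx2OE. The groups did not overlap, and the log2 fold change of 0.60 ± 0.15 (SE) just missed the threshold in edgeR (adjusted p = 0.0535) and passed it in DESeq2 (adjusted p = 0.0113). Slc16a3 had a log2 fold change of 0.63 with overlapping groups (edgeR adjusted p = 0.138). Both transporters had their highest level in Dlx2OE sample 1, and the Slc16a1 share of the pair was 70.9% ± 6.7 in WT and 70.6% ± 2.2 in Dlx2OE (SD, n = 3 each).

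Pyruvate enters the cycle through the pyruvate dehydrogenase complex, whose subunits are encoded by Pdha1, Pdhb, Dlat and Dld, and which is switched off by the kinase Pdk1, a known target of hypoxia-inducible factors. None of these 5 genes passed the test in edgeR or in DESeq2. Pdhb was the single member of this step with an unadjusted edgeR p under 0.05, and was lower in every Dlx2OE sample, at 127 to 154 CPM in WT and 109 to 119.7 CPM in Dlx2OE. Its log2 fold change was -0.29 (edgeR adjusted p = 0.12). Pdha1, the partner subunit of Pdhb in the catalytic core, had a log2 fold change of -0.04 and Dlat one of 0.01. Dld, which is shared with the oxoglutarate dehydrogenase complex, was at -0.20, and Pdk1 was at 0.25 with a 95% interval of -0.12 to 0.61.

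In the citric acid cycle, 1 of 14 genes fell and none rose at an edgeR adjusted p under 0.05, beside 3.46% and 2.99% of all genes tested. In a list this short 1 call is already a larger share than these. A negative log2 fold change was found for 10 of the 14, beside 8707 of the 17514 genes tested, and the median was -0.28. Idh2 encodes the mitochondrial isocitrate dehydrogenase that makes NADPH and lies at chr7:80094846-80115392 on the reverse strand. It was at 308, 287 and 268 CPM in WT and at 219, 212 and 190.2 CPM in Dlx2OE. The groups did not overlap. The level was 0.72 times that of WT, a log2 fold change of -0.47 ± 0.11 (SE, edgeR adjusted p = 0.0427). The call held without WT sample 3 or Dlx2OE sample 1. It was lost without WT sample 1 (edgeR adjusted p = 0.12), WT sample 2 (0.145), Dlx2OE sample 2 (0.134) or Dlx2OE sample 3 (0.143), and after correction for length and GC content (0.136), always with the same direction. Idh1, its cytosolic counterpart, was at 141 to 196 CPM in WT and 143 to 190.3 CPM in Dlx2OE, and the Idh2 share of the counts per kilobase of both was 65.2% ± 2.2 in WT and 56.9% ± 4.4 in Dlx2OE (SD, n = 3 each) without overlap.

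The other genes of the cycle did not pass the test. The NAD-dependent isocitrate dehydrogenase is built from Idh3a, Idh3b and Idh3g, of which the catalytic subunit gene Idh3a had a log2 fold change of -0.03, and Idh3b and Idh3g had values of -0.36 and -0.33 (edgeR adjusted p = 0.0876 and 0.167). Succinyl-CoA synthetase, the step that makes a nucleoside triphosphate, had log2 fold changes of -0.28 for Sucla2, -0.36 for Suclg1 and -0.27 for Suclg2. Fh1, the fumarase, was at -0.31, and the malate dehydrogenases Mdh1 of the cytosol and Mdh2 of mitochondria were at -0.41 and -0.15. Mdh1, the leading malate dehydrogenase by counts per kilobase, was at 376, 397 and 290 CPM in WT and at 305, 261 and 233 CPM in Dlx2OE, and WT sample 3 lay below Dlx2OE sample 1. Opposite in sign were citrate synthase, Cs, the entry enzyme of the cycle, and the oxoglutarate dehydrogenase subunits Ogdh and Dlst. Cs was at 217 to 228 CPM in WT and 234 to 255 CPM in Dlx2OE, and Dlst at 140 to 153 CPM in WT and 159 to 165 CPM in Dlx2OE, in both cases without overlap, with log2 fold changes of 0.13 and 0.14 that did not pass the test. The sign of Dlst turned to -0.04 after correction for length and GC content. When WT sample 3 was left out, 6 members were lower at an edgeR adjusted p under 0.05 (Ldhb, Pdhb, Idh2, Idh3b, Idh3g and Suclg1), beside 1298 of 18171 genes tested. The cycle median was then -0.40, and it was -0.17 without WT sample 1.

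Oxidative phosphorylation genes had a more negative median by the same measure. Over all genes tested, 3.46% were lower and 2.99% higher in edgeR, and 15.4% and 14.1% at an unadjusted p under 0.05. In DESeq2 the shares of all genes were 7.21% lower and 5.54% higher. Of 74 tested nuclear genes for complexes I to V, 21 were lower and 0 higher in edgeR at an adjusted p under 0.05 (58 lower and 0 higher at an unadjusted p under 0.05, 46 lower and 0 higher in DESeq2), 72 had a negative log2 fold change, and the median was -0.64. Those with the smallest p were Ndufb8, Ndufa3, Ndufa6, Ndufa5 and Ndufa2 in complex I, which had 13 of 36 lower, and Atp5k, Uqcrb, Uqcr11, Atp5e and Uqcr10 in complexes II to V, which had 8 of 38 lower. Of 12 tested genes of mitochondrial DNA 5 were lower (mt-Co2, mt-Atp6, mt-Nd4l, mt-Co3 and mt-Nd4), with a median of -0.74, 12 lower in DESeq2, and counts that are uncertain, because nuclear copies share their sequence. The log2 fold changes ranged from -1.23 to 0.05 over the nuclear genes, and from -0.65 for Ldhb to 1.62 for Slc2a3 over the 42 members, so that the lists overlapped. The difference between the lists was not tested. The nuclear oxidative phosphorylation genes are short, with a median exon length of 1778.5 bases against 4060.5 for the 42 members and 3994 for all genes tested. After correction for length and GC content the median of the nuclear genes was -0.47 with 12 lower, that of mitochondrial DNA was -0.85 with 6 lower, that of the cycle was -0.22, and that of pyruvate entry and the cycle together was -0.15. After this correction no member remained lower and 1 was higher, Slc2a3, beside 2.49% and 1.84% of all genes.

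**Figure D4:**
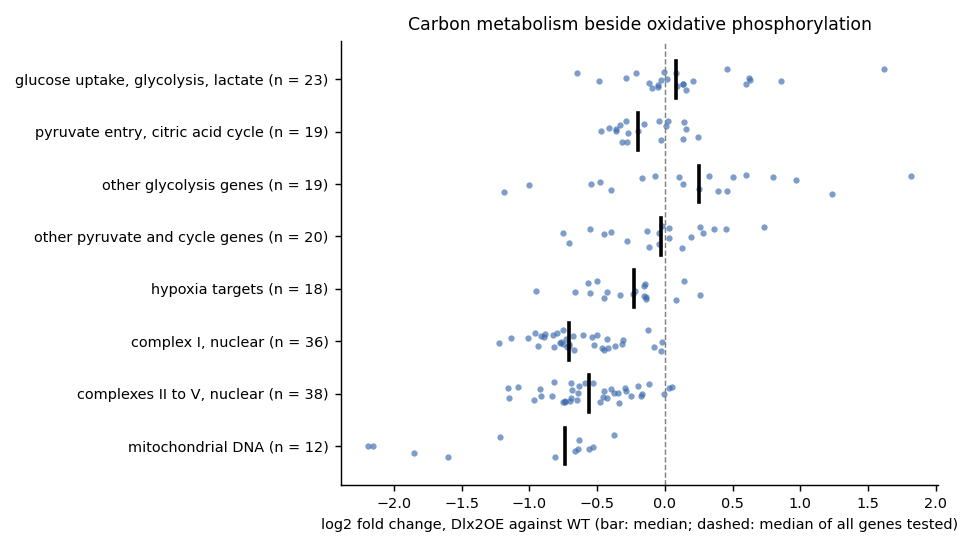
Log2 fold changes, Dlx2OE against WT, of the members (upper 2 rows), of related carbon metabolism genes and hypoxia targets, and of oxidative phosphorylation genes, with 1 point per gene and a bar at the median of each list. The medians are 0.08 for glycolysis and -0.20 for the cycle with pyruvate entry, and -0.71, -0.56 and -0.74 for the bottom 3 lists. Sdha, Sdhb, Sdhc and Sdhd belong both to the other pyruvate and cycle genes and to complexes II to V.

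Genes that border on the pathway gave at most 2 calls per list in either direction. Among all genes tested 3.46% were lower and 2.99% higher. In lists of at most 20 tested genes, 1 call is already a larger share than these. Of 19 tested further glycolysis genes, 2 were lower and 1 higher: Bpgm, the red-cell enzyme of bisphosphoglycerate synthesis (log2 fold change -0.54), the glucose transporter Slc2a12 (-1.0), and the hexokinase-like Hkdc1 (1.82, from 0.61 to 0.99 CPM in WT to 1.92 to 3.63 CPM in Dlx2OE). Bpgm moved beside the erythroid markers, of which 3 of 10 fell, and whose sum was 3326 to 4442 CPM in WT and 2006 to 2597 CPM in Dlx2OE, with no marker at 0. Their part in the value of Bpgm was not tested. Of 20 further genes of pyruvate metabolism and the cycle, the mitochondrial pyruvate carrier subunit Mpc2 fell (-0.75, edgeR adjusted p = 0.042) and Dhtkd1, an oxoadipate dehydrogenase, rose (0.73, edgeR adjusted p = 0.0451). This list shares Sdha, Sdhb, Sdhc and Sdhd with the list of complexes II to V. Pcx, pyruvate carboxylase, which refills the cycle with oxaloacetate, rose from 25.6, 27.2 and 32.0 CPM to 50.8, 49.96 and 48.3 CPM (log2 fold change 0.81, edgeR adjusted p = 0.0116). Pck2, the mitochondrial enzyme that draws oxaloacetate off, fell by 0.53 on the log2 scale (edgeR adjusted p = 0.028), and these were 2 of the 3 tested genes of gluconeogenesis. In glycogen metabolism 1 of 8 genes fell, the primer protein Gyg (-0.45). With 1 sample left out, Pcx stayed under 0.05 in 5 of 6 fits, and the other called genes of these lists in 1 or 2 of 6. None of the 8 pentose phosphate genes or 8 shuttle genes passed the test in edgeR. Their smallest p values belonged to Pgls and Taldo1 (log2 fold changes -0.51 and -0.37) and to Slc25a11 and Slc25a13 (-0.30 and -0.27). At an unadjusted p under 0.05 these lists had 2 and 1 lower genes and 0 higher, and in DESeq2 1 and 0 lower and 0 higher. The shares of all genes were 15.4% lower and 14.1% higher by the unadjusted edgeR p, and 7.21% and 5.54% in DESeq2.

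Slc2a3, Hk2, Pfkfb3 and Slc16a1 are known to be induced by hypoxia or by Myc proteins. So are many of the other members, Pdk1 among them, whose groups overlapped (log2 fold change 0.25). Transcripts of other targets and of the regulators were read beside the members. Of 18 further hypoxia targets 0 were called in edgeR (7 lower and 1 higher at an unadjusted p under 0.05, 2 lower and 0 higher in DESeq2), 15 had a negative log2 fold change, and the median was -0.23. Over all genes tested, 15.4% were lower and 14.1% higher at an unadjusted edgeR p under 0.05, and 7.21% and 5.54% in DESeq2. The smallest p values among these targets belonged to Angptl4 (-0.43) and Bhlhe40 (-0.95). Of 16 regulators 1 was called: Mycn, which rose from 41.2, 33.4 and 38.3 CPM to 61.0, 57.9 and 60.5 CPM, a log2 fold change of 0.67 (edgeR adjusted p = 0.0174). The smallest Dlx2OE value of Mycn exceeded the largest WT value. Its call held in 3 of the 6 fits with 1 sample left out. Whether Mycn has a part in the levels of the members was not tested. Protein levels and metabolite fluxes were not measured.

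**Figure D5:**
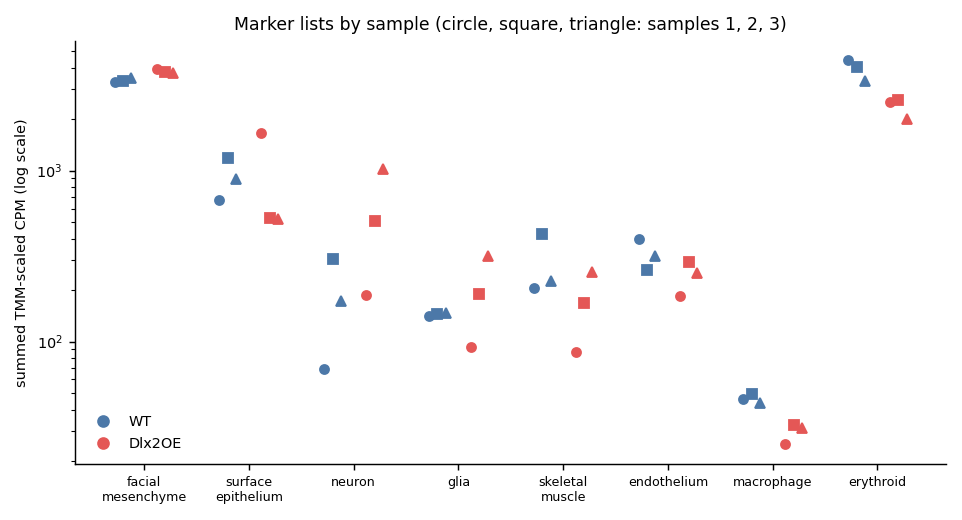
Summed TMM-scaled CPM of 8 lists of cell type markers in each sample on a log scale (circles, squares and triangles for samples 1, 2 and 3). Facial mesenchyme sums are higher, and macrophage and erythroid sums lower, in every Dlx2OE sample than in every WT sample. Epithelium is highest in Dlx2OE sample 1 at 1656 CPM, and neuron sums reach 1025 CPM in Dlx2OE sample 3.

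The order of the Dlx2OE samples was shared by most members. In 27 of the 42, Slc2a3, Pfkfb3, Gapdh, Ldha, Pkm and Idh2 among them, Dlx2OE sample 1 was the highest, sample 2 the next and sample 3 the lowest, an order held by 20.5% of all genes tested. The share of reads outside genes was 5.75, 7.81 and 14.7% in these samples. Summed surface epithelium markers were also highest in Dlx2OE sample 1, at 1656 CPM, and were 528 and 519 CPM in samples 2 and 3, below the 670 to 1193 CPM of WT, where 0 of 8 markers were at 0. Neuron markers ran in the reverse order, at 187, 511 and 1025 CPM, as did glia markers, at 93.2, 190 and 316 CPM, with Foxd3 at 0 in at least 1 sample. Hk1, Pfkp and Eno2 followed this reverse order. The part of these cell types, and of the reads outside genes, in the levels was not tested.

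Some members share sequence or position with other annotated genes, which limits how well their reads are assigned. Gapdh has 164 annotated near-identical copies, Ldha 11, Eno1 6 and Pkm 5. Counts were taken from copies in the files that matched over at least 50% of their own exon length, 156 of them for Gapdh. The counts on these copies were at most 1.40% of the counts of the member in any sample, and adding them left every call as it was. Reads aligned to more than 1 place were set apart in the counting, 5.25 to 6.24% in WT and 4.60 to 4.85% in Dlx2OE. Reads shared with copies can be among them, so low counts on copies cannot show how many reads were shared. Aldoa has a further identifier of the same symbol with 0.768% of the counts of both. Exons of Pdha1, Pkm, Gpi1 and Pfkm overlap other genes over 16.1%, 15.3%, 11.5% and 10.7% of their length, and without a stated strand setting reads of overlapping genes cannot be separated. Slc2a3, Pfkfb3 and Idh2 have no exon overlap in the annotation and no such copy.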

How the data were processed

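RNA-seq of maxillary processes was analysed in 3 WT and 3 Dlx2OE samples, grouped by their labels. The authors mapped reads to mm10 with STAR 2.7.3a, counted them per gene with htseq-count (HTSeq 0.12.4) in union mode, and deposited raw counts. The strand setting and annotation release are not given in the sources used here. Per-sample totals of 26155500 to 31308813 counts set the precision: 3 counts equal 0.0955 to 0.111 CPM. Reads outside genes, 5.03 to 14.7%, stayed out of the tests.

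Counts were tested on genotype with edgeR 4.0.16 (R 4.3.3, quasi-likelihood F test, TMM scaling, filterByExpr with a minimum count of 10) and Benjamini-Hochberg adjustment over 17514 genes. CPM are TMM-scaled, and fold changes use edgeR's fitted values. The samples of a genotype were independent RNA preparations per the labels, which do not tie them to embryos, so p-values measure the spread between these preparations. With 3 samples a group, an exact permutation test of a single gene cannot go below p = 0.1. Alternatives were DESeq2 1.42.0, other scalings and filters, a loess correction for length and GC content (span 0.5), the replicate block, added copies (blastn 2.17.0, at least 90% identity over 50% of the sequence) and the removal of each sample. Promoter windows came from RefSeq. Scripts were tested on simulated data.

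The members and lists were chosen with earlier results of these data known. Values in every sample are given for members with an adjusted p under 0.05 and for the leading isozyme of each family, and companion genes are named by smallest p. A companion list that was also computed is not reported here.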

Additional observations from a re-analysis of the deposited data

How the results depend on the processing

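The count of lower members was 1. It was 2 with DESeq2, with at least 10 counts in every sample and without a filter on low counts, 0 with library size alone and 0 with the length and GC correction, and 0 to 6 when 1 sample was left out. The count of higher members was 2. It was 4 with DESeq2, 3 with library size alone, with at least 10 counts in every sample and without a filter, 1 with the length and GC correction, and 0 to 3 when 1 sample was left out. Over all genes, the main fit called 606 lower and 524 higher of 17514, and library size alone 493 and 570. With at least 10 counts in every sample the calls were 662 and 537 of 15622, and without a filter 1179 and 865 of 33556. DESeq2 called 1373 and 1055 of 19047, and the length and GC correction 436 and 322 of 17514. The fits with 1 sample left out called 40 to 1298 of all genes lower and 39 to 975 higher, the fewest without WT sample 2 and, for lower genes, the most without WT sample 3. The count past a log2 fold change of 1 was 1, and 0 to 2 when 1 sample was left out, with 0 without WT sample 1 or 2. Scaling by library size alone moved the median of all genes to 0.07.

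The replicate numbers did not pair the samples, with correlations of same-numbered deviations of -0.07, -0.21 and 0.07. With the replicate block alone, 1 member was lower and 1 higher, and the log2 fold change of Pfkfb3 was 0.61 (edgeR adjusted p = 0.0598) against 0.62 without the block. With the length and GC correction and the block 0 were lower and 1 higher, and Pfkfb3 was at 0.48 (edgeR adjusted p = 0.105).

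Members near 0 changed sign, none of them called. With the length and GC correction Pfkm was 0.027, Pkm -0.021, Ldha 0.023, Pdha1 0.024 and Dlst -0.038, and with the block added 0.026, -0.042, 0.0077, 0.014 and -0.035. With library size alone Hk1 was 0.014, Pfkm 0.058, Eno1 0.042, Ldha 0.018, Pdha1 0.026 and Idh3a 0.046. Without a filter Slc2a1 was -0.0038 and Dlat -0.016, and with the block Slc2a1 was -0.016. With 1 sample left out the log2 fold change ranged from -0.28 to 0.16 for Slc2a1, -0.21 to 0.035 for Hk1, -0.060 to 0.043 for Pfkm, -0.56 to 0.23 for Aldoc, -0.047 to 0.23 for Pgk1, -0.044 to 0.27 for Pgam1, -0.11 to 0.082 for Eno1, -0.22 to 0.080 for Eno2, -0.0076 to 0.20 for Pkm, -0.20 to 0.10 for Ldha, -0.16 to 0.042 for Pdha1, -0.081 to 0.073 for Dlat, -0.087 to 0.16 for Idh1 and -0.15 to 0.066 for Idh3a. Why these values moved was not tested.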
